A study of Mus musculus with 2 samples.

Results

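The 38 genes described here carry out DNA replication and drive the cell cycle. They were taken from a list and found by symbol in the basic GENCODE vM21 annotation of the mouse assembly mm10, where each of the 38 was found among 21755 protein-coding genes. Of these, 22 act in replication, 3 act at entry into S phase (E2f1, E2f2 and Ccne1) and 13 act in mitosis or its preparation. The material was spleen tissue from females of the hybrid strain B6CASTF1/J, a cross of C57BL/6 with CAST, at an age of 36 days. DNase-seq, which sequences the sites where the nuclease DNase I cuts chromatin, was done in 2 libraries, labelled biological replicates 1 and 2. The labels describe separately numbered females but give both libraries the same donor entry, so the spread between them may be technical in part. There was 1 group and no treatment, so every value below is a description of these libraries, with no test between conditions. Replicate 1 had 42454 peaks and 133725 footprints and replicate 2 had 60683 and 246700. Total read depth was unknown.

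Replication begins when the origin recognition complex, Cdc6 and Cdt1 load the MCM helicase on DNA, which Cdc45, GINS and Mcm10 then help to activate. Genes of this machinery are transcribed toward S phase and are known targets of E2F factors, which the retinoblastoma protein holds back in resting cells. Genes of mitosis are transcribed later, and many are known to carry a cell cycle genes homology region (CHR), bound by the DREAM and MuvB complexes, beside CCAAT boxes bound by NF-Y. The spleen holds mostly resting lymphocytes, with dividing cells among germinal centre B cells and red cell precursors.

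The labelled tissue was checked with marker genes. Promoter peaks stood at all 6 B cell markers, among them Cd79a and Pax5, in each library. They stood at 3 of 4 T cell markers in replicate 1 and at 4 in replicate 2, and at 2 and 4 of 4 erythroid markers. None of the 4 markers of liver, pancreas and heart (Alb, Cpa1, Ins2 and Myh6) had one in either library. Gata1 and Klf1, transcription factors of red cell precursors, lacked a promoter peak in replicate 1 and had one in replicate 2. Libraries of whole tissue do not tell how many cells share an open site from how open it is in each.

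To show what the 2 kinds of promoter look like, 5 are printed here from the RefSeq promoter table (assembly GRCm38.p6, which is mm10), from 250 bases before the start site to 50 after it, 5′ to 3′ on the strand of the gene. Capitals mark every match, on either strand, to an E2F word (TTCCCGC or one of its variants TTCGCGC and also TTGCCGC and also TTGGCGC), to the NF-Y word CCAAT, or to a CHR word (TTTGAA or TTTAAA). Mcm5 (chr8:75109259-75109558, plus strand) and Mcm6 (chr1:128359656-128359955, minus strand) stand for replication. Cdk1 (chr10:69352863-69353162), Ccnb2 (chr9:70421505-70421804) and Top2a (chr11:99024140-99024439), all on the minus strand, stand for mitosis.
Mcm5: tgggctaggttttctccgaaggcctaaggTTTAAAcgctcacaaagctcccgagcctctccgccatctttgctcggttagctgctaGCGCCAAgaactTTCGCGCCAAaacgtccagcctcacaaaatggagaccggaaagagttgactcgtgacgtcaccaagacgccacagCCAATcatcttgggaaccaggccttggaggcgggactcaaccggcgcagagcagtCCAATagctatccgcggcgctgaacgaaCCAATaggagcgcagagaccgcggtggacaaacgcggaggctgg
Mcm6: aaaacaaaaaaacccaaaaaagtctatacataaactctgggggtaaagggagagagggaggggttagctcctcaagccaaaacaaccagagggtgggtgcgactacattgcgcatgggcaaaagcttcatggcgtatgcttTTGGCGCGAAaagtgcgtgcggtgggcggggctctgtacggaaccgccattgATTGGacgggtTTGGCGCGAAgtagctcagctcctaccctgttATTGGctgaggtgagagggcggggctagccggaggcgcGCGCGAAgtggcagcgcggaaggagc
Cdk1: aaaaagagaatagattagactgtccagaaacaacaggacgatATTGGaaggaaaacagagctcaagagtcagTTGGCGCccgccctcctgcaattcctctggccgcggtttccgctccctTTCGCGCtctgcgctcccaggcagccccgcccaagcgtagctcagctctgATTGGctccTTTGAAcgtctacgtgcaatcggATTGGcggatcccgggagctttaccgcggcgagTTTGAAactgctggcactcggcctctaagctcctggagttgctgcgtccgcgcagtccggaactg
Ccnb2: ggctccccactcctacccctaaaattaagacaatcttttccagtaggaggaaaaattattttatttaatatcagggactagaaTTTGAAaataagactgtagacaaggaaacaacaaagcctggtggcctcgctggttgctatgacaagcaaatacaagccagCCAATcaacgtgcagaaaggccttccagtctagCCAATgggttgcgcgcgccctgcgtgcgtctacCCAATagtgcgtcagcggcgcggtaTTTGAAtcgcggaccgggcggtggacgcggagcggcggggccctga
Top2a: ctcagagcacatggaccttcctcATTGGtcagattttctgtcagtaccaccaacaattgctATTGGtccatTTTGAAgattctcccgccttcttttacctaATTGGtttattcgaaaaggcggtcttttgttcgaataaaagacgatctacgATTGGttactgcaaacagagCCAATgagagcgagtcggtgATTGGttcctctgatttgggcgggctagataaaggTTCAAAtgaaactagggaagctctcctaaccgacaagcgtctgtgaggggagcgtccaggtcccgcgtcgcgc
The printed promoters of Mcm5 and Mcm6 hold E2F words in overlapping pairs in which a word on one strand shares bases with a word on the other. The promoters of Mcm2 and Mcm10 hold no E2F word. The printed mitotic promoters hold TTTGAA and several CCAAT boxes. The kinds are not exclusive: Cdk1 also holds 2 E2F words, and Mcm5 also holds a CHR word and 3 CCAAT boxes. A match is a description of the letters, not a binding site.

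Every one of the 38 genes had at least 1 peak within 1 kb of an annotated start site in both libraries. The same held for 53.9% of all protein-coding genes in replicate 1 and 57.4% in replicate 2. The strongest promoter peaks of the libraries overlapped each other at 38 of 38 genes. No share over all genes is given for this overlap, so it is not read as particular to the members. Peak strength was read as the percentile of the authors' signal value, the share of the peaks of the same library with a lower signal. The median percentile of replication genes was 90.6 in replicate 1 and 93.2 in replicate 2, with a mean of 91.9 ± 1.85 (SD, n = 2). Mitotic genes had medians of 82.6 and 89.6, with a mean of 86.1 ± 4.91 (SD, n = 2). The difference was 7.92 percentile points in replicate 1 and 3.59 in replicate 2, with replication genes higher in both, and its mean was 5.75 ± 3.06 (SD, n = 2). Among all genes with a promoter peak the medians were 85.5 and 88.5, so replication genes lay above that level in both libraries and mitotic genes below it in replicate 1 and above it in replicate 2. The offset rests on the members listed: over 40 further replication genes the medians were 93.0 and 94.2, and over 40 further mitotic genes 89.4 and 93.5, closer to each other than the members were.

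A peak in the top 10% of its library was found at 11 of 22 replication genes in replicate 1 and at 17 in replicate 2, where 19.9% and 26.0% of all protein-coding genes had one. Of genes with a promoter peak at all, 36.9% and 45.2% had one in the top 10%. Mitotic genes had such a peak at 2 of 13 in replicate 1 and 5 of 13 in replicate 2, shares of 15.4% and 38.5%. In both libraries together the top 10% held 11 of 22 replication genes and 2 of 13 mitotic genes. The joint share over all genes is not given and can be at most the 19.9% of replicate 1. The percentile was higher in replicate 2 at 35 of 38 genes, and only Orc1, Ccne1 and Birc5 were higher in replicate 1. The median of all genes with a promoter peak was also higher in replicate 2, at 88.5 against 85.5, so the rise is not particular to the members.

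**Figure D1:**
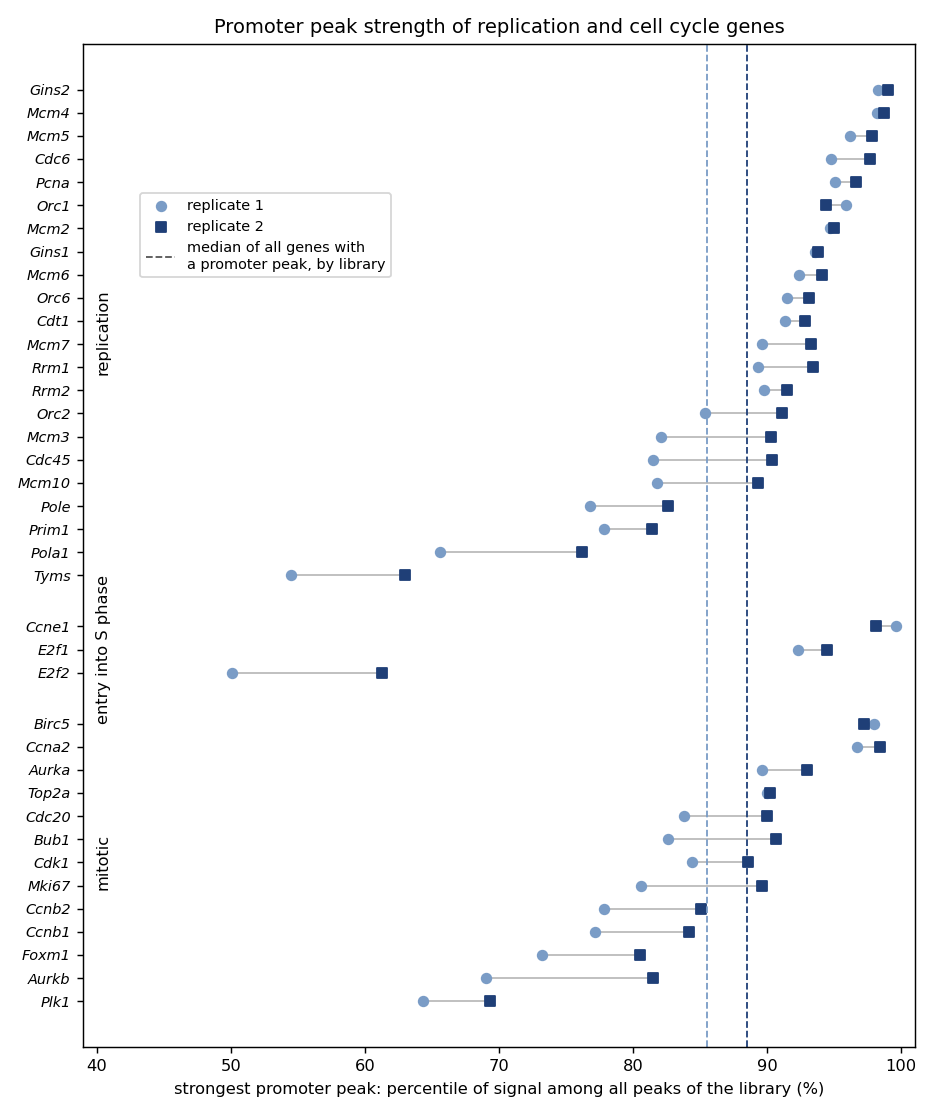
Percentile of the strongest promoter peak among all peaks of its library (x axis, %) for each of the 38 genes (y axis), in replicate 1 (circles) and replicate 2 (squares), with the median of all genes that had a promoter peak as dashed lines at 85.5 and 88.5. Most replication genes lie right of the lines, while Pola1 and Tyms, E2f2 and Plk1 lie far to the left in both libraries.

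Licensing factors had strong promoter peaks, with median percentiles of 91.5 and 93.1 over Orc1, Orc2, Orc6, Cdc6 and Cdt1. The peak of Cdc6, which recruits the helicase to the origin, stood at percentile 94.8 in replicate 1 and 97.7 in replicate 2. Orc1, the largest subunit of the origin complex, stood at 95.9 and 94.4. Orc2 was the lowest of these genes, at 85.4 and 91.1, and Orc6 (91.5 and 93.1) and Cdt1 (91.3 and 92.8) lay between.

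The MCM helicase genes were the group with the highest medians among the replication roles, 93.5 and 94.6. Mcm4 had a peak of signal 11.8 in replicate 1 and 17.7 in replicate 2, at percentiles 98.2 and 98.7. Mcm5 followed with signals of 9.80 and 15.5, at 96.2 and 97.8. Mcm3 was the lowest subunit in both libraries, at 82.1 and 90.3, although the 6 proteins form 1 ring. The others were Mcm2 at 94.7 and 95.0, Mcm6 at 92.4 and 94.1, and Mcm7 at 89.6 and 93.3. The strongest peak of Mcm7 had its midpoint 548 bases downstream of the nearest GENCODE start in replicate 1. It lay 4.50 bases before a second start of Mcm7 in the RefSeq table, at position 138171266 of chromosome 5.

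The genes that activate the helicase were less alike. Gins2, a subunit of GINS, had the strongest promoter peak of the replication genes, chr8:120589061-120589500 in replicate 1, with signals of 11.9 and 18.9 and percentiles of 98.3 and 99.0. Gins1 stood at 93.6 and 93.8. Cdc45, at 81.5 and 90.4, and Mcm10, at 81.8 and 89.3, were below the median of all open genes in replicate 1 and above it in replicate 2.

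The polymerase genes were lower than most of the replication set, and the clamp gene was not. Pcna, the sliding clamp that keeps polymerases on DNA, stood at 95.1 and 96.6. Pole, the catalytic subunit of polymerase epsilon, stood at 76.8 and 82.6, and Prim1, the small primase subunit, at 77.8 and 81.4. Pola1, the catalytic subunit of polymerase alpha on chromosome X, was lower still, with signals of 2.14 and 2.77 and percentiles of 65.6 and 76.2. All 3 lay under the median of open genes in both libraries.

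Among enzymes that make deoxynucleotides, both subunits of ribonucleotide reductase were near the middle of the set, Rrm1 at 89.3 and 93.4 and Rrm2 at 89.8 and 91.5. Tyms, thymidylate synthase, had the weakest promoter peak of the replication genes (chr5:30073561-30073740 in replicate 1), with signals of 1.56 and 1.63 and percentiles of 54.5 and 63.0. Among the strongest 21227 peaks of each library, Tyms still had a promoter peak in replicate 1 and had none in replicate 2.

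The genes of entry into S phase held both extremes in replicate 1, and the lowest value in replicate 2. Ccne1, cyclin E1, had the strongest promoter peak of all 38 genes in replicate 1, at chr7:38107541-38107780, with signal 15.5 and rank 152 of 42454 peaks. In replicate 2 its signal was 16.0 and its rank 1174 of 60683, so its percentiles were 99.6 and 98.1. Gins2, Mcm4 and Ccna2 ranked above it there. E2f1 stood at 92.3 and 94.5. E2f2, a second activating E2F factor, had the weakest promoter peak of the 38 genes in both libraries. Its signals were 1.40 and 1.55 and its percentiles 50.1 and 61.3. This holds for the GENCODE starts, and a stronger peak before a RefSeq start of E2f2 is described below.

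Of the cyclin genes of mitosis, Ccna2 stood apart from its partners. Ccna2, which also acts in S phase, had signals of 10.2 and 16.7 and percentiles of 96.7 and 98.4. Ccnb1 stood at 77.2 and 84.2 and Ccnb2 at 77.8 and 85.1, and their kinase Cdk1 at 84.4 and 88.6. The B-type cyclins were thus below the median of open genes in both libraries and Ccna2 was above it.

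Among mitotic kinases and regulators of the checkpoint and exit, Aurka was highest at 89.6 and 93.0 and Plk1 lowest at 64.3 and 69.3, with signals of 2.06 and 2.03. Aurkb, the kinase of the chromosomal passenger complex, stood at 69.0 and 81.5. Bub1, of the spindle checkpoint, stood at 82.6 and 90.7, and Cdc20, which activates the anaphase-promoting complex, at 83.8 and 90.0.

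Birc5, which encodes survivin, a partner of Aurkb in the passenger complex, had one of the 2 strongest promoter peaks of the mitotic set, with signals of 11.5 and 14.1 and percentiles of 98.0 and 97.2. Top2a, the topoisomerase of dividing cells, stood at 90.0 and 90.2, and Mki67, the gene of the Ki-67 antigen, at 80.6 and 89.6. Foxm1, a transcription factor of the mitotic programme, stood at 73.2 and 80.5. Partners in 1 complex could thus lie far apart, as Birc5 and Aurkb did in both libraries.

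Several members have a neighbour that starts from the same stretch. A protein-coding start on the other strand lay within 1 kb at 6 of 22 replication genes (27.3%) and 2 of 13 mitotic genes (15.4%), against 10.6% of all protein-coding genes and 18.1% of those with a promoter peak in replicate 1. The pairs were Mcm4 with Prkdc, Mcm7 with Ap4m1, Orc1 with Prpf38a, Orc6 with Vps35, Cdc45 with Ufd1, Pole with Pxmp2, Aurka with Cstf1 and Foxm1 with Rhno1. Mcm4 had a second peak nearer the start of Prkdc, at percentiles 89.4 and 92.1, apart from its strongest. Noncoding genes, not counted above, also started on the other strand within 1 kb of Orc2, Gins2, Pcna and Plk1. No share over all genes is given for these. Where both starts lie at 1 peak, as at Orc1 and Prpf38a, the peak is not specific to the member.

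Footprints, short stretches inside open chromatin that the authors called as protected from cutting, were counted within 1 kb of the start sites. Replication genes had a median of 6 in replicate 1 and 8.50 in replicate 2, and mitotic genes 6 and 8. The medians of all genes with a promoter peak were 6 and 8 as well, so neither class stood apart in number. Mcm7 had 10 and 18, Orc6 had 10 and 17, and Gins2 had 15 and 10. By the mean of the libraries the fewest were at Tyms, with 3 and 4, and at Plk1 and Aurkb, with 3 and 5 each. Orc1 and Pola1 also had 4 in replicate 2, and Mcm10 and Orc2 had 3 in replicate 1. Counts were higher in replicate 2 at 34 genes and higher in replicate 1 at 3 (Gins2, Orc1 and Pola1), and replicate 2 had more footprints over the whole genome. Of the promoter footprints of replication genes in replicate 1, 84.3% were shared with replicate 2 over at least 50% of the shorter one, and at mitotic genes 74.3% were. Over all protein-coding genes the share was 72.1%. Read from replicate 2, the shares were 53.3%, 47.7% and 46.2%. Bases with a cut rate at an FDR of at most 0.001 numbered a median of 679.5 and 783 per replication promoter and 594 and 685 per mitotic promoter, against 714 and 749 over genes with a promoter peak.

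**Figure D2:**
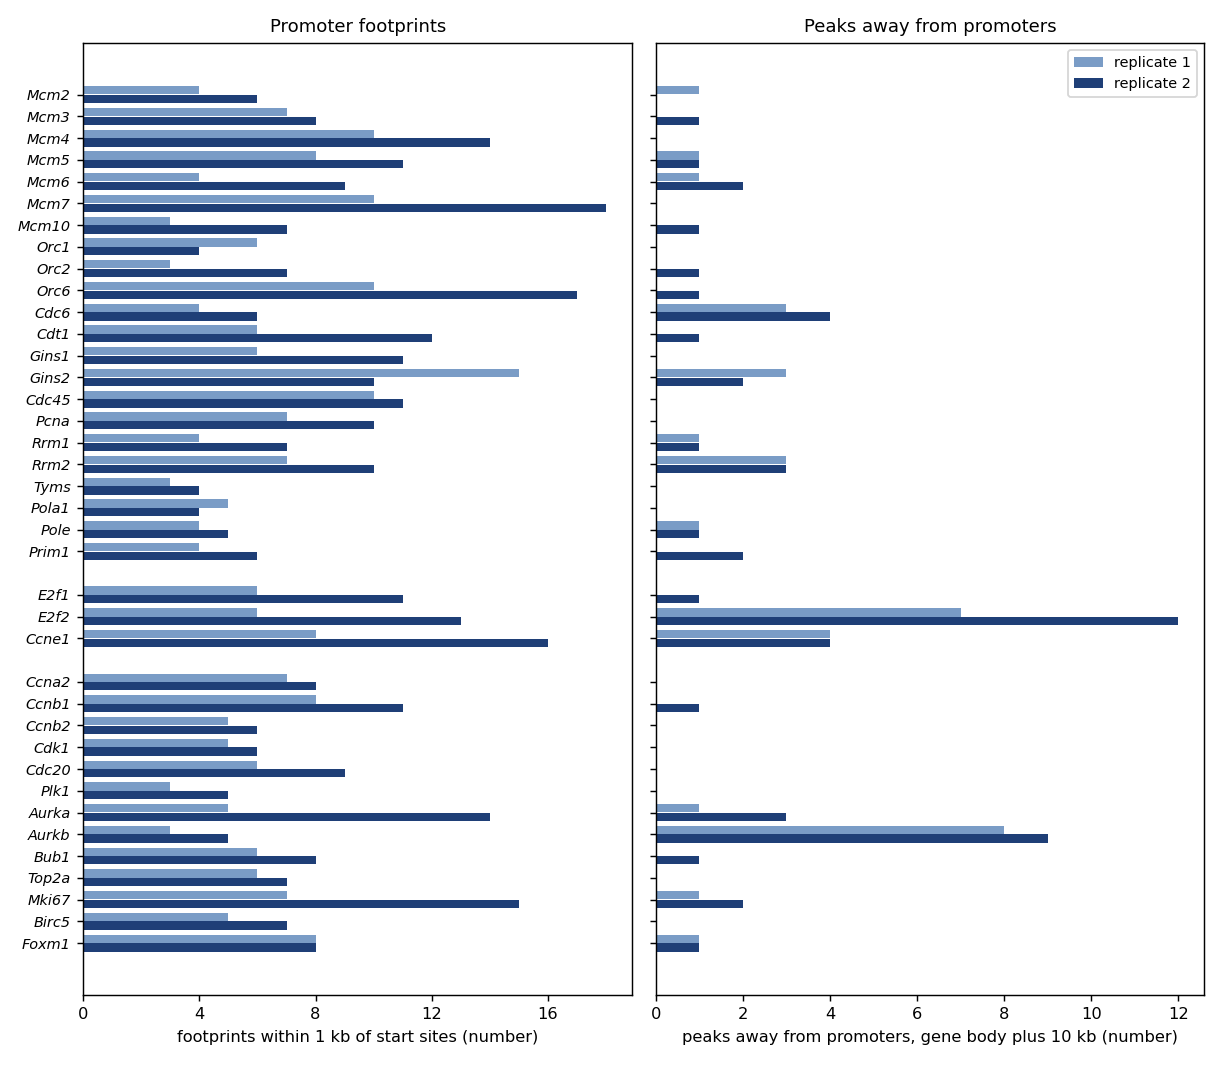
Number of footprints within 1 kb of start sites (left) and number of peaks that overlap no promoter in the gene body plus 10 kb (right) for each of the 38 genes, in replicate 1 (light bars) and replicate 2 (dark bars). Footprint counts were higher in replicate 2 at 34 genes, and E2f2 and Aurkb stand out on the right with 7 and 12 and with 8 and 9 peaks.

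Words in the promoter sequence were compared between replication and mitotic genes. The RefSeq table held promoters of 31 of the 38 genes, 18 of replication, 3 of entry and 10 of mitosis, and lacked Mcm4, Gins1, Gins2, Pole, Ccna2, Aurkb and Foxm1. Orc2, E2f2 and Mcm7 have a pair of starts there, and a gene counted once if either promoter held the word. An E2F word occurred in 11 of 18 replication promoters (61.1%) and 3 of 10 mitotic promoters (30%), against 14.2% of 16433 protein-coding genes. A CHR word showed the reverse, with 5 of 18 (27.8%) and 9 of 10 (90%), against 27.3% of all genes. The NF-Y word CCAAT was common to both, with 15 of 18 (83.3%) and 9 of 10 (90%), against 42.2%. Among genes open at the promoter in each library the shares were 20.4% for E2F, 21.6% for CHR and 43.4% for CCAAT. The CHR share of replication promoters was thus near the level of all genes, and that of mitotic promoters far above it.

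The background lists, which share no gene with the 38, gave the same order for E2F and CHR words. Of 34 further replication promoters 23 held an E2F word and 9 a CHR word, and of 34 further mitotic promoters 5 and 25 did. CCAAT differed more between them than among the members, with 14 of 34 and 24 of 34. A CHR word together with CCAAT stood in 8 of 10 mitotic promoters, 5 of 18 replication promoters and 12.4% of all. Mitotic promoters also repeated CCAAT: 8 of 10 held 2 or more, against 8 of 18 replication promoters and 14.4% of all, and Top2a held 6. Among the further genes 14 of 34 mitotic and 9 of 34 replication promoters held 2 or more, so this repetition was less common in the further mitotic list than in the mitotic members. The shares are counts of genes and carry no replicate error.

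The window mattered for the CHR word. With 500 bases before to 100 after the start, 12 of 18 replication promoters and 10 of 10 mitotic promoters held one, a difference of -33.3 percentage points (replication minus mitotic) in place of -62.2, and 51.1% of all genes held one. With TTTGAA alone the shares were 2 of 18 and 7 of 10, against 17.6% of all genes. For E2F words the longer window gave 12 of 18 and 4 of 10, against 21.0%. The start used by RefSeq can differ from that of the peak: at Cdc6 the peak and its footprints lay upstream of the window searched. At Orc2 both CHR words lay at its second RefSeq start, where the strongest promoter peak did not lie. E2F and CCAAT matches shared bases in 4 pairs among the members, and E2F matches overlapped each other in 5.

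**Figure D3:**
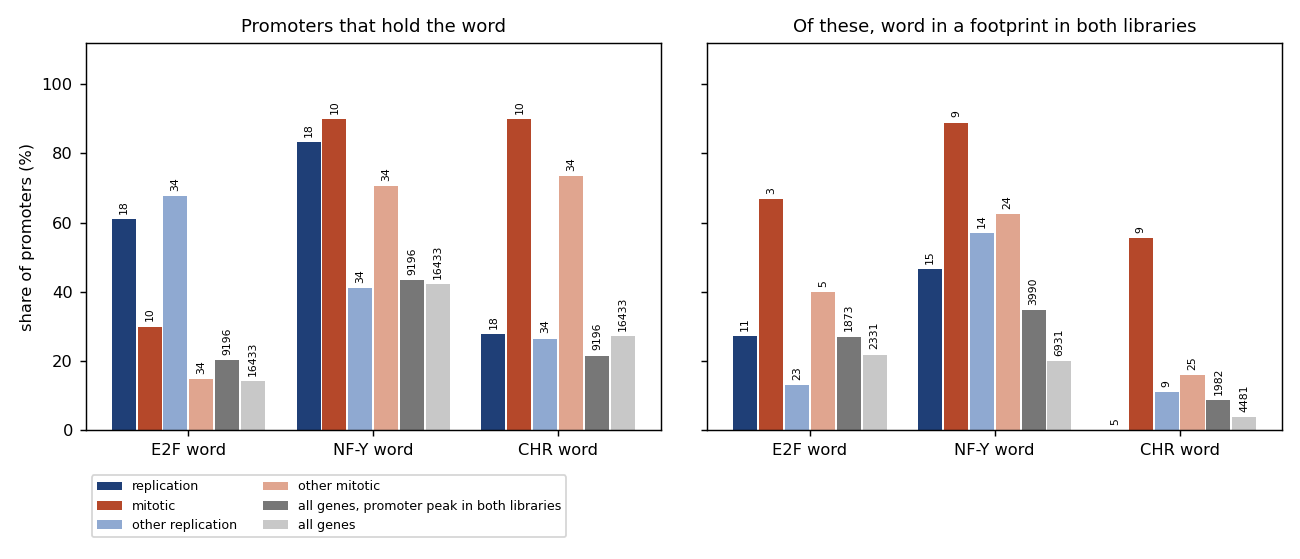
Share of promoters (y axis, %) that hold an E2F, NF-Y or CHR word (left) and, of those, the share with a match in a footprint in both libraries (right), for the members, the further genes of each process and all genes; the number over each bar is its denominator. CHR words reach 90% of mitotic and 27.8% of replication members, and 5 of 9 against 0 of 5 of these lie in footprints.

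Words were counted as in a footprint if they lay inside one widened by 5 bases on each side. A word may thus reach past its edge, and the shorter CCAAT may only adjoin it. A CHR word lay in a footprint in both libraries at 5 of 9 mitotic promoters with the word (Ccnb2, Cdc20, Cdk1, Mki67 and Top2a) and at 0 of 5 replication promoters (Cdc45, Mcm2, Mcm5, Orc2 and Rrm2). The share was 4 of 25 over further mitotic promoters and 8.73% over genes with an open promoter. These 5 CHR words all read TTTGAA, and they are printed within the stretch that the footprints of both libraries cover, widened by 5 bases, with the word in capitals.
Ccnb2 (chr9:70421532-70421555, minus strand): cggtaTTTGAAtcgcggaccgggc
Cdc20 (chr4:118437323-118437373, minus strand): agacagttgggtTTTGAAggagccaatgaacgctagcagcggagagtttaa
Cdk1 (chr10:69352973-69353021, minus strand): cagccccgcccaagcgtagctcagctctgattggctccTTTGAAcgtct
Mki67 (chr7:135716475-135716516, minus strand): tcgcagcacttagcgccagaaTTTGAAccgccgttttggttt
Top2a (chr11:99024338-99024392, minus strand): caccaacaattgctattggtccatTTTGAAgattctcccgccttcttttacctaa
In Cdk1 the word began 71 bases before the start, and the footprint, 37 bases wide in replicate 1 and 36 in replicate 2, ran on over a CCAAT box on the other strand. In Top2a the footprint was 36 and 45 bases wide and likewise took in a CCAAT box. In Ccnb2 the word stood 4 bases after the start, with a footprint on either side of it in each library. The downstream footprints, of 11 and 9 bases, covered 4 and 1 of its 6 bases, and the printed stretch was drawn round these. The upstream footprints ended 4 bases after the start in replicate 1 and 5 in replicate 2, so they covered further bases of the word. At Cdc20 the footprints of the libraries lay on either side of the word and covered 1 and 2 of its bases. In Cdk1 they covered 4 and 3, and in Mki67 and Top2a all 6 in both libraries. A second TTTGAA in Cdk1, 15 bases before the start, lay in no footprint of either library.

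E2F words lay in a footprint in both libraries at 3 of 11 replication promoters (Mcm5, Mcm7 and Pola1) and 2 of 3 mitotic promoters (Ccnb1 and Cdk1), against 27.1% of open promoters with the word. The replication share of 27.3% was thus at the level of all open promoters. Among the further genes the counts were 3 of 23 replication and 2 of 5 mitotic promoters. The E2F words of the members that lay in a footprint in both libraries are shown in the same way.
Mcm5 (chr8:75109347-75109379, plus strand): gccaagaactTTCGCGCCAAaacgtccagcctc
Mcm7 (chr5:138172037-138172071, minus strand): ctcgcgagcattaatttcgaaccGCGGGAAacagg
Pola1 (chrX:93632247-93632281, minus strand): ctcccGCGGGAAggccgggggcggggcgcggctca
Ccnb1 (chr13:100786575-100786599, minus strand): gggaacccgcgGCGCCAAtgggaag
Cdk1 (chr10:69353068-69353096, minus strand): agtcagTTGGCGCccgccctcctgcaatt
In Mcm5 the capitals are a pair of overlapping words, 152 and 149 bases before the start, inside footprints of 16 and 23 bases. The footprints covered all 7 bases of the word at Ccnb1 and Cdk1 as well. At Mcm7 they covered only 3 bases in each library, and at Pola1 6 in replicate 1 and 4 in replicate 2. Mcm6, with 5 matches, the most of the members, had 0 in a footprint in either library. CCAAT lay in a footprint in both libraries at 8 of 9 mitotic promoters and 7 of 15 replication promoters, against 34.7% of open promoters with the word. Cdc20 was the mitotic exception, with its CCAAT in a footprint in replicate 2 only. The 8 include Plk1 and Bub1, where in replicate 1 the CCAAT only adjoined a footprint and shared no base with it. Among the further genes CCAAT lay in a footprint in both libraries at 15 of 24 mitotic promoters (62.5%) and 8 of 14 replication promoters (57.1%). These shares were closer to each other than those of the members.

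**Figure D4:**
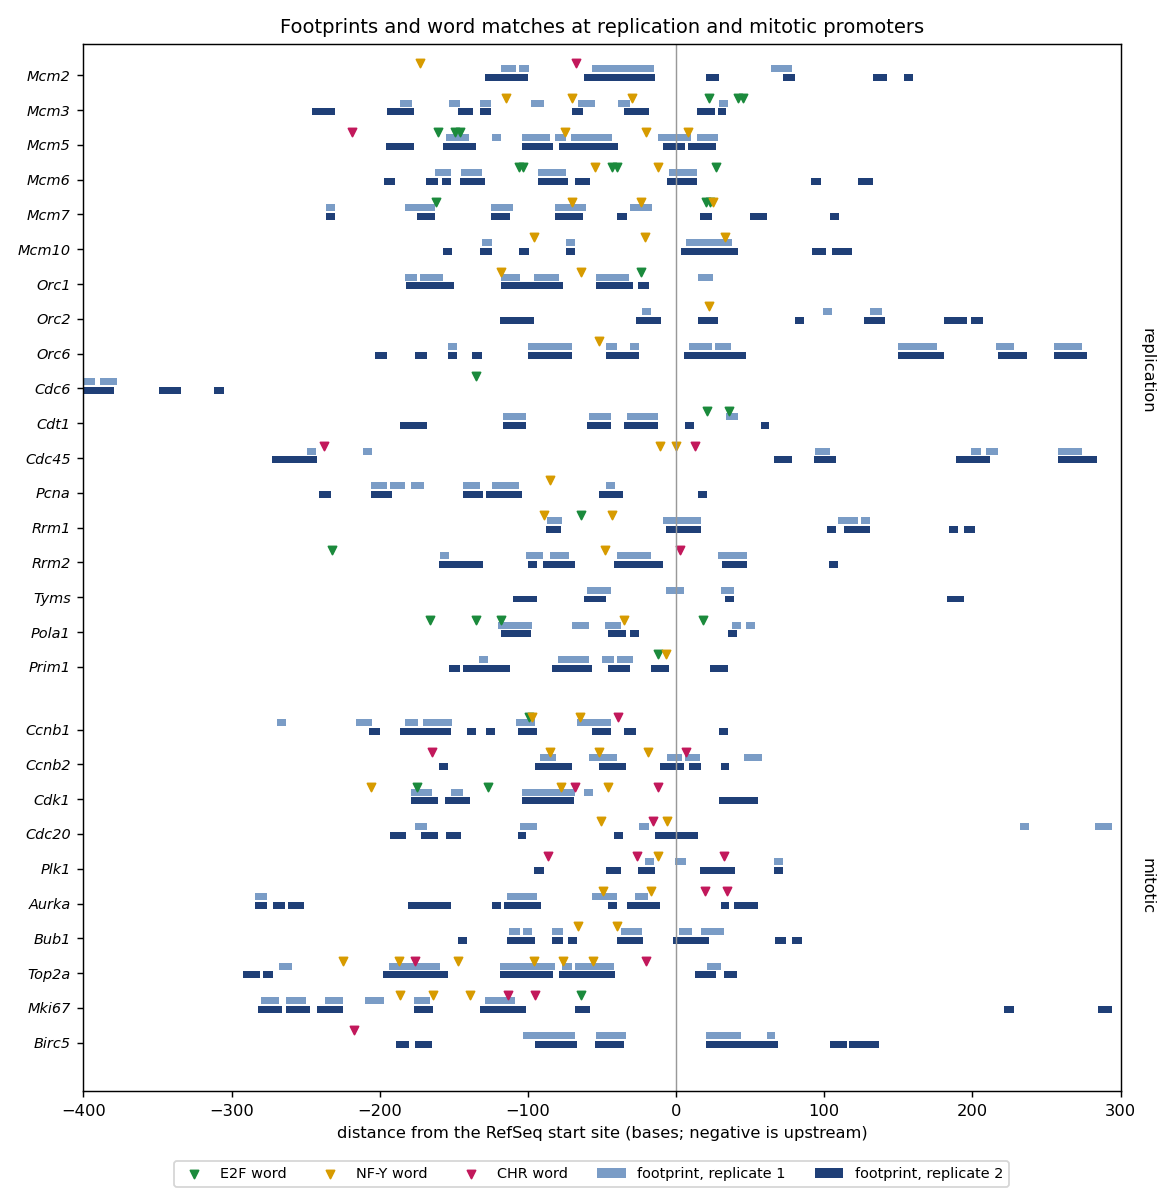
Footprints of replicate 1 (light bars) and replicate 2 (dark bars) and word matches (triangles) by distance from the RefSeq start (x axis, bases; the more upstream start where there are 2) at 18 replication and 10 mitotic promoters. A CHR triangle stands over bars of both libraries at Mki67 and Top2a, and at the edge of the bars at Cdk1 and Cdc20.

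Peaks that overlapped no promoter of a protein-coding gene were counted in the gene body and 10 kb on either side. At least 1 lay at 8 of 22 replication genes in replicate 1 and 13 in replicate 2, and at 4 and 6 of 13 mitotic genes, where 46.9% and 54.9% of all protein-coding genes had one. The members together had 36 and 55, at 14 and 22 genes, and 15 of 38 genes had none in either library. The share of members was below that of all genes in replicate 1 and near it in replicate 2. The highest counts were at E2f2 with 7 and 12, Aurkb with 8 and 9, and Ccne1 with 4 and 4, and Cdc6 also had 4 in replicate 2. Peaks away from promoters outranked the promoter peak of the same gene in both libraries at 2 of 38 genes, E2f2 and Aurkb. No share over all genes is given for this count, or for the genes with none in either library.

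At E2f2, 6 of 7 such peaks in replicate 1 and 9 of 12 in replicate 2 had their midpoint in an intron. The strongest stood at percentile 89.3 in replicate 1 and 94.9 in replicate 2, with signals of 6.35 and 10.7, against 1.40 and 1.55 at the promoter. Its midpoint lay 8226 and 8236 bases downstream of the start annotated by GENCODE. The region, chr4:136180521-136180740, began in an exon, of which it covered 57 bases, and ran into the intron after it. RefSeq has a second start of E2f2 at position 136180782, 8388 bases from the nearest GENCODE start of the gene, and the peak midpoint lay 162 and 152 bases before it. By the RefSeq annotation this peak would count as a promoter peak of E2f2. The region is printed on the plus strand because it held the most accessible chromatin of the locus, with capitals on the 34 bases that were in footprints of both libraries.
E2f2: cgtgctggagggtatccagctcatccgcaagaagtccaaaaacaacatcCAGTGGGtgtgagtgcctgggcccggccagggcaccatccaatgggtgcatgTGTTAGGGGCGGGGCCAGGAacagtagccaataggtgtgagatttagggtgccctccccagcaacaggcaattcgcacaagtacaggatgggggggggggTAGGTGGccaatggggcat
It held 3 footprints in replicate 1 and 5 in replicate 2. A further intronic peak about as strong lay beside it, chr4:136180061-136180240 in replicate 1, at percentiles of 87.8 and 91.9.

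At Aurkb, all 8 and 9 such peaks lay upstream of the gene, and 6 and 7 of them overlapped a tRNA gene of the RefSeq annotation. These 6 and 7 were the only peaks away from promoters of any member that did. The strongest of each library, which were different peaks, stood at percentile 84.5 in replicate 1 and 85.9 in replicate 2, against 69.0 and 81.5 at the promoter of Aurkb. A stronger peak in the locus, at 92.2 and 97.7, lay at the promoter of another gene. The count at Aurkb is thus mostly one of peaks on tRNA genes, and whether any of the peaks bears on Aurkb was not tested.

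At Ccne1, the 4 peaks away from promoters were the same in number in both libraries and far weaker than the promoter. The highest of each library, again different peaks, stood at 60.8 in replicate 1 and 80.1 in replicate 2, and 2 of 4 were intronic in each library.

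**Figure D5:**
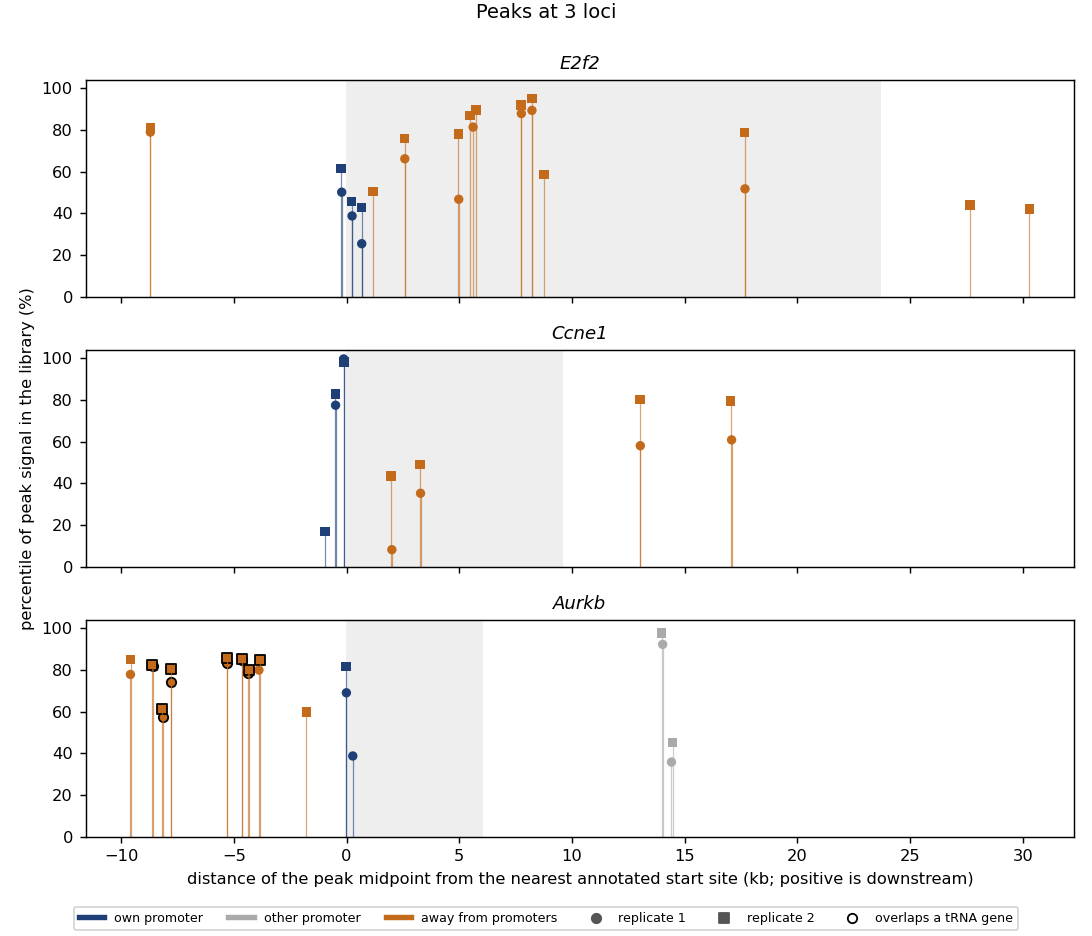
Percentile of each peak (y axis, %) by distance of its midpoint from the nearest GENCODE start (x axis, kb) at E2f2, Ccne1 and Aurkb, with the gene body in grey, circles for replicate 1, squares for replicate 2 and black outlines for peaks on tRNA genes. At E2f2 the intronic peaks reach 89.3 and 94.9, above the promoter at 50.1 and 61.3, whereas at Ccne1 the promoter is highest.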

How the data were processed

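DNase-seq data of spleen were used, from 1 group of 2 libraries. Per the deposited readme of a library, its peaks and cut rates came from its own alignments to mm10, and its footprints from those alignments and the cut rates. The tools for alignment, peaks and footprints are not given in the sources used. The deposited peaks carry a signal value of the authors, used here only as a rank within a library, since depth is unknown. The deposited footprints carry an FDR (a q-value) of 0.01, and the authors' deposited cut rate track lists bases at a q-value under 0.05. Of 2 deposited peak lists per library the shorter was used.

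Peaks and footprints were counted within 1 kb of every start in the basic GENCODE vM21 annotation, and peaks in the gene body plus 10 kb were called away from promoters if they overlapped no protein-coding promoter. Placement as intronic used the midpoint. Words were searched on both strands of RefSeq promoters, whose 20061 sequences of protein-coding genes all equalled the GRCm38.p6 genome, with Python 3.11.15, pandas 2.3.3, numpy 2.4.6, pysam 0.24.0 and matplotlib 3.10.9. Counting and word search were tested on simulated data. No test was run, because genes are not replicates of a condition.

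The members, the lists and the words were chosen with earlier results of these data known, and the grouping into roles was made after the values were seen. Every member could be named. Given in full were, by rule, the 3 best and 3 lowest by percentile in each class, the 3 with most peaks away from promoters, and the 3 with most and fewest footprints. Of the further genes, those without a promoter peak in both libraries and the 3 best were named. The alternatives tried were the longer peak list, equal numbers of the strongest peaks, other windows and flanks, and each library alone.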

Additional observations from a re-analysis of the deposited data

How the results depend on the processing

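Peak strength is a rank, so it cannot show absolute differences between the libraries, and replicate 2, with more peaks and footprints, gave higher counts at most genes. All 22 replication and 13 mitotic genes kept a promoter peak with the longer list, a window of 200 bases and in each library alone. With the strongest 21227 peaks of each library the replication share was 97.7%, since Tyms had none in replicate 2. The median percentile of replication minus mitotic genes, 5.75 points, ranged from 3.59 to 7.92 over single libraries. It was 3.96 with the longer list and 12.3 when ranked among promoter peaks only. With Ccna2 among the replication genes it was 6.93, and with only genes that had a promoter peak it stayed at 5.75. With equal numbers of peaks, 42454, an alternative chosen after seeing the data, it was 6.51. The difference in median footprints, 0.250, ranged from 0 to 0.500 over single libraries and was -0.750 with footprints that touch a peak. With Ccna2 among the replication genes it was 0.500. The difference in peaks away from promoters, 0.500, ranged from 0 to 1 and was 0.0921 when counted per 10 kb of locus. It was -1.50 with flanks of 50 kb, so neither difference has a settled sign. For CCAAT the difference in share, -6.67 percentage points, was 4.44 with the longer promoter window, while E2F (31.1, then 26.7) and CHR (-62.2, then -33.3) kept their direction. Also added after seeing the data, counting an E2F word that overlaps a footprint by 1 base gave the same 3 replication promoters in number. For a CHR word that rule is the same as the widening by 5 bases, so its 5 promoters could not change. Leaving out tRNA genes, likewise added later, gave 0.500 for peaks away from promoters. No paired analysis was possible because the series holds 1 group.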

Other observations

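Genes of the same processes that are not among the 38 were also open. A promoter peak was found at 39 of 40 further replication genes in replicate 1 and 40 in replicate 2, and at all 40 further mitotic genes in both. It was found at 28 and 29 of 29 regulators of the RB, E2F, DREAM and G1 network. The shares over all protein-coding genes were 53.9% and 57.4%. Tk1, the salvage kinase for thymidine, had no promoter peak in replicate 1 and one at percentile 65.6 in replicate 2, beside 54.5 and 63.0 at Tyms, whose enzyme makes thymidylate by another route. Ccnd1, cyclin D1, had none in replicate 1 and one at 49.9 in replicate 2. The strongest of these genes were Pold1, the catalytic subunit of polymerase delta, at 99.9 and 99.6, the cyclin-dependent kinase inhibitor gene Cdkn2d at 99.7 and 99.9, and Pold3 at 99.5 and 98.6. Pold1 thus stood near the top of both libraries, whereas Pola1 and Pole of the other replicative polymerases stood at 65.6 and 76.2 and at 76.8 and 82.6.

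Both classes of promoter were rich in CpG. The median observed over expected CpG ratio was 0.915 in replication promoters and 0.951 in mitotic promoters, against 0.634 over all promoters and 0.804 over those with a peak in both libraries.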
